A study of Mus musculus with 24 samples.

Results

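Serum amyloid A proteins, lipocalin-2, haptoglobin, orosomucoid and the SerpinA3 protease inhibitors were followed through the ductal and stromal cells of mouse liver, in healthy tissue and in culture. The 10 genes were Saa1, Saa2, Saa3, Lcn2, Serpina3f, Serpina3g, Serpina3m, Serpina3n, Orm1 and Hp, all found by symbol among the 49568 genes of each of the 2 expression tables. They were chosen by measured values, after Saa3 was seen to be high in cultured stroma, Serpina3f to be higher in co-cultured stroma and Lcn2 to be high in ductal cells. Those values are therefore given as a description and carry no test, which holds for Saa3 and Serpina3f in every comparison that involves a cultured stromal group and for Lcn2 in every comparison that involves a ductal group.

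RNA was sequenced in 24 samples of 2 experiments. In the transwell experiment, cells of C57BL/6 wild-type mice aged 8 to 12 weeks formed 6 groups of 2 samples each. EpCAM+ ductal cells (DCs) were taken freshly sorted (DC day 0), after 15 days alone in a growth-factor-rich expansion medium (EM organoids) or after 15 days in mesenchymal medium on an insert above stromal cells (co-cultured organoids). SCA1+ stromal cells (SCA1+Msc) were taken freshly sorted (SCA1+Msc day 0), at day 15 of culture without DCs (SCA1+Msc alone) or at day 15 beneath the DCs (SCA1+Msc co-cultured). The co-cultured stroma had been expanded on plastic in mesenchymal medium before the DCs were added, so its change from day 0 also holds that expansion. Whether the lone stroma had the same expansion is not stated. A difference in earlier culture between lone and co-cultured stroma can therefore not be told apart from the presence of DCs. All stromal cells of this experiment had been sorted as CD45-, CD11b- and CD31-, with no gate on PDGFRα, from littermates other than those that gave the DCs. EM organoids and co-cultured organoids differ in medium as well as in the presence of stroma, and those effects cannot be told apart. In the homeostasis experiment, 4 populations were sorted from each of 3 healthy littermates aged 12 weeks, mice A and E (male) and F (female), namely DCs, PDGFRα+ cells with or without SCA1, and SCA1+ cells without PDGFRα (PDGFRα-SCA1+). These mice carry 1 copy of an H2B-GFP reporter in the Pdgfra gene (B6.129S4-Pdgfratm11(EGFP)Sor/J), so PDGFRα was read from GFP. Fresh cells of both experiments had been freed from the liver by enzymes and sorted before RNA was taken. The part of this handling in their levels was not tested.

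Acute phase proteins are plasma proteins whose production in the liver changes within hours of injury or infection, mainly under interleukin-6 acting through STAT3 and interleukin-1 or TNF acting through NF-κB and C/EBP factors. Hepatocytes make most of the circulating SAA1, SAA2, haptoglobin and orosomucoid, while SAA3 and lipocalin-2 are also made by epithelium, fibroblasts and myeloid cells. The SerpinA3 family, a single gene in humans, is a cluster of related genes in the mouse, whose products trap serine or cysteine proteases in an irreversible complex.

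All positions are on GRCm38. The 3 Saa genes lie within 1 cluster on chromosome 7, with Saa3 at chr7:46711998-46715700, Saa1 at chr7:46740497-46742980 and Saa2 at chr7:46751790-46754313. The 4 Serpina3 members lie among 11 genes of the cluster at chr12:104112724-104414329, with Serpina3f at chr12:104214544-104221129, Serpina3g at chr12:104236245-104241939, Serpina3m at chr12:104338486-104394257 and Serpina3n at chr12:104406729-104414329. Lcn2 is at chr2:32384633-32388252, Orm1 at chr4:63344560-63348163 and Hp at chr8:109575128-109579172. Values count reads on all exons of a gene. Reads with several equally good places had been dropped, so the near-identical copies limit some values: of the 50-base stretches of the transcript, Orm1 shares 20.4% with other genes (mainly Orm2), Serpina3m 19.1% (mainly Serpina3k), Serpina3g 16%, Saa1 14.8% (mainly Saa2), Serpina3f 10.7%, Saa2 9.12%, Serpina3n 6.9% and Saa3 3.91%, and Lcn2 and Hp share none. Serpina3m also overlaps Serpina3k on the same strand, which makes the level of Serpina3m uncertain wherever Serpina3k is high.

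The stretch upstream of the start is shown for 6 members, because copies that lie in the same cluster behaved differently in the same cells. RefSeq promoter windows (GRCm38.p6) were found for 7 of the 10 members, all but Serpina3m, Orm1 and Hp. Each sequence runs 5′ to 3′ along the gene's own strand from position -200, counted from the RefSeq start, to the base before the start or before the annotated gene, and covers chr7:46715701-46715876 (minus strand) for Saa3, chr7:46742981-46743180 (minus) for Saa1, chr7:46751633-46751789 (plus) for Saa2, chr12:104214344-104214543 (plus) for Serpina3f, chr12:104235947-104236146 (plus) for Serpina3g and chr12:104406508-104406707 (plus) for Serpina3n. Capitals mark matches on either strand to the letters TTCNNNGAA (a STAT site), TTGCNNAA (C/EBP-like), GAAANNGAA (interferon-response-like) or GGANTTTCC (NF-κB-like).
Saa3: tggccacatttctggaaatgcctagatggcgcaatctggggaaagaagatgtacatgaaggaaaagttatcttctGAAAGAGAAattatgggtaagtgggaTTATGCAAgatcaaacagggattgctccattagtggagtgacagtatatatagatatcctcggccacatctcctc
Saa1: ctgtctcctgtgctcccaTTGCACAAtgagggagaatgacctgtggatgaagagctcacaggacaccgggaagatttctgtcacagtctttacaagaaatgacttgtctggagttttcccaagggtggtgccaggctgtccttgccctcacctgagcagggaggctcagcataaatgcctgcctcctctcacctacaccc
Saa2: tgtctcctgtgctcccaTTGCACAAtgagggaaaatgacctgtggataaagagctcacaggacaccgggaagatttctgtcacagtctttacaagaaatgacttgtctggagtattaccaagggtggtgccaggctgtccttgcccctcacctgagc
Serpina3f: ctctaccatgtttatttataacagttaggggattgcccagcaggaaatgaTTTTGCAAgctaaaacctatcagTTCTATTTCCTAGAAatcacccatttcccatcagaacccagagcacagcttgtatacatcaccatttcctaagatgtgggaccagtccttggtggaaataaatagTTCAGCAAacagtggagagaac
Serpina3g: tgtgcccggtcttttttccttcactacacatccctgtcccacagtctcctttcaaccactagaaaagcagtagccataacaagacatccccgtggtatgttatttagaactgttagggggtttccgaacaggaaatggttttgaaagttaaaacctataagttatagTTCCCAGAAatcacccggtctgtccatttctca
Serpina3n: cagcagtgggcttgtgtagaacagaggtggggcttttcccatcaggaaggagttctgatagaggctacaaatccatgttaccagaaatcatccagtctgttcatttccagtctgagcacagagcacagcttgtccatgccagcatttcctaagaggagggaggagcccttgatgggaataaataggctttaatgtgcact

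The windows of Saa1 and Saa2 were 95.3% identical over their whole length and shared 1 C/EBP-like match, at -182 in Saa1 and -183 in Saa2. Saa3 was 51.3% identical to Saa1 and 51.1% to Saa2, and held a C/EBP-like match at -99 and an interferon-response-like match at -125. Among the SerpinA3 windows, Serpina3f was 64% identical to Serpina3n and 45.7% to Serpina3g. Serpina3f held a STAT match at -121, which overlaps an interferon-response-like match at -127, and C/EBP-like matches at -150 and -22, Serpina3g held a STAT match at -33, and Serpina3n held none of the 4 motifs. A C/EBP-like match also stood at -216 in the Lcn2 window. The letters GGANTTTCC occurred in none of the 7, but other forms of an NF-κB site were not searched for, so their absence is not shown. Of the 32851 promoter windows of all genes, 8.3% held the STAT letters, 10.8% the C/EBP-like, 8.56% the interferon-response-like and 1.25% the NF-κB-like letters, so that apart from the last these matches are common.

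Each library held 19.3M to 28.0M counted reads (M, 1e6) in the transwell and 19.6M to 25.7M in the homeostasis experiment. Transwell levels are in TPM, which scales reads by gene length and by the total of the sample. Homeostasis levels are the values deposited under that name, which lie between 0.722 and 1.39 times the TPM. Differences are on the scale of log2(value + 1), which understates the change of low genes, and a gene was called at a Benjamini-Hochberg adjusted p under 0.05 in limma. The paper describes the transwell samples of a group as independent biological replicates from littermates. It does not state which sample came from which animal, or whether same-numbered samples of different groups share an animal. The transwell p-values therefore measure the spread between these samples. In bulk RNA, fewer cells of a type and less RNA per cell cannot be told apart. Markers of other cell types were found in several groups. The PDGFRα-SCA1+ cells, labelled mesenchymal and gated as CD31-, summed to 1768 to 2102 over 5 endothelial markers, against at most 16.2 in the other populations, and to 54.1 to 86.1 over 6 mesenchymal markers, against 3948 to 5428 in both PDGFRα+ populations. SCA1+Msc at day 0 held 22764 and 27625 TPM of 12 hepatocyte markers, with all 12 detected, and 8678 and 10762 TPM of 5 erythroid markers. They also held 177 and 182 TPM of the 5 endothelial markers, with all 5 detected, against 27.9 and 25.1 TPM in DC day 0. In SCA1+Msc alone the hepatocyte sum was 84.3 and 92.0 TPM and Apoa1, Cps1, Cyp3a11, Cyp2c29, Hpd and Tat were at 0. In EM organoids 4 of the 12 hepatocyte markers reached 1 TPM in both samples, with Cps1, Cyp3a11, Cyp2c29 and Hpd at 0. In co-cultured organoids 2 of the 12 did, with Cps1, Cyp3a11, Hpd and Tat at 0. The organoid sums thus rest on part of the list. Because hepatocytes make several of these proteins, their sum is given in both groups of each transwell comparison. DC day 0 held 4603 and 5791 TPM of hepatocyte and 5206 and 5314 TPM of erythroid markers. In the homeostasis samples the hepatocyte sum was 925 to 7335 and the erythroid sum 546 to 8516. Co-cultured organoids held 4502 and 3879 TPM of 5 mesothelial markers, with Wt1, Upk1b and Lrrn4 at 0, against 297 and 326 in EM organoids. In either organoid group only 1 of the 5 reached 1 TPM in both samples, so these sums do not show mesothelial cells.

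**Figure D1:**
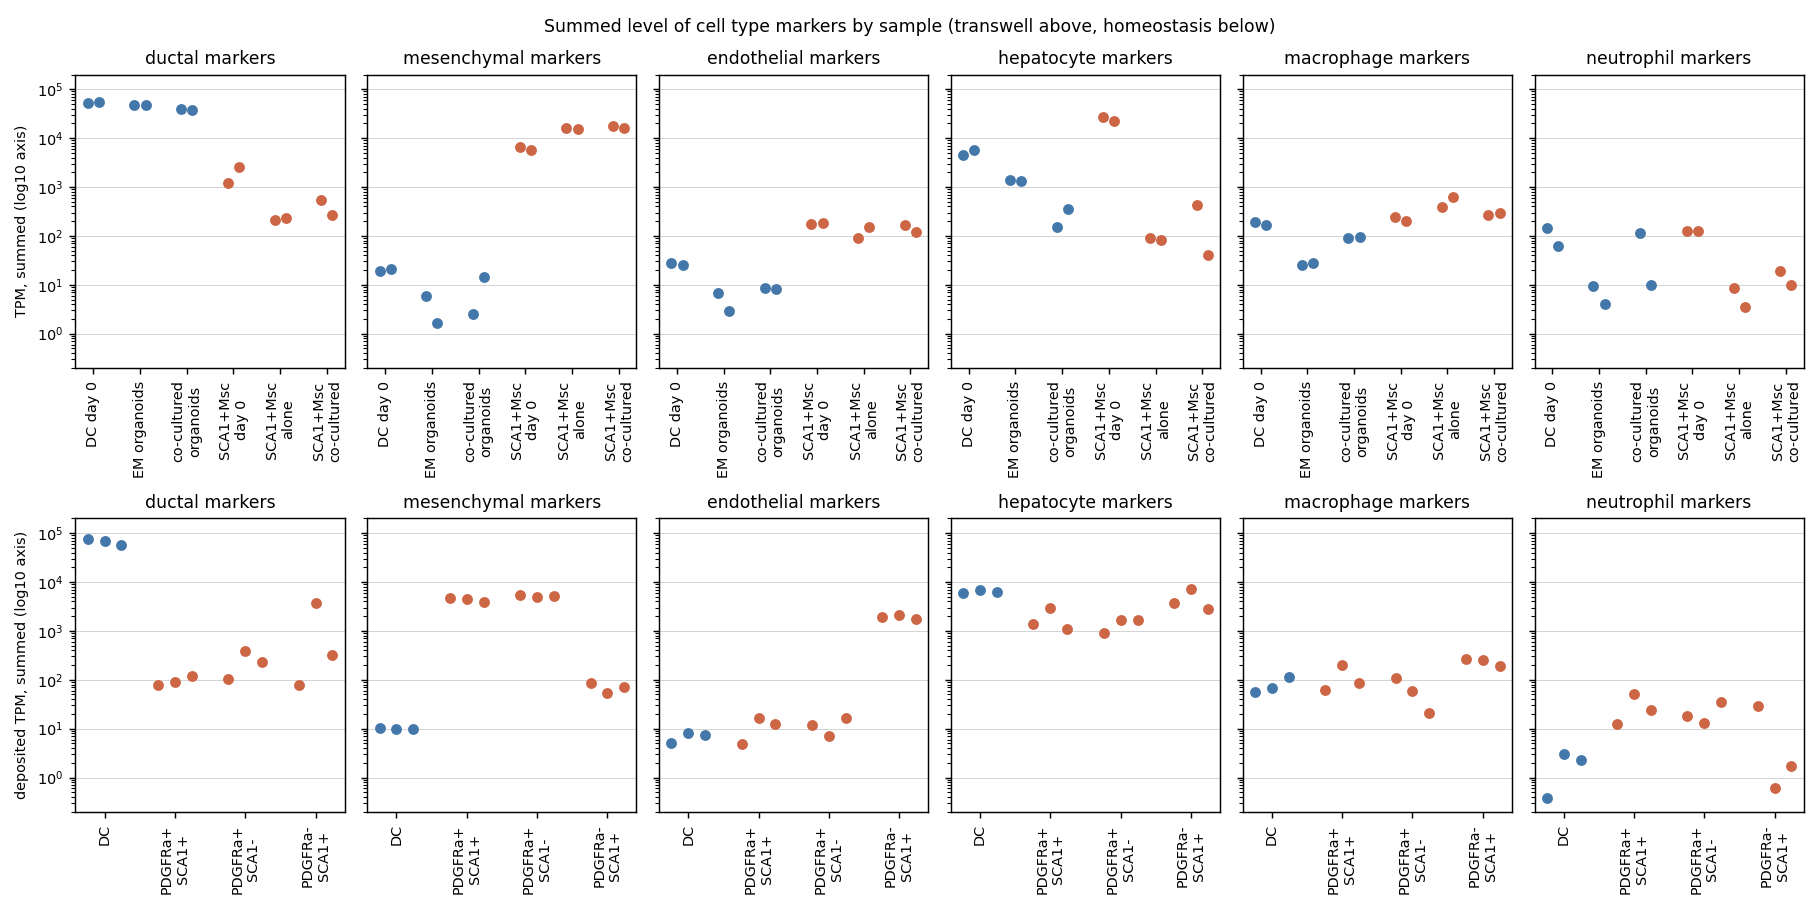
Summed level of the marker genes of 6 cell types in each sample on a log10 axis, transwell (TPM) above and homeostasis (deposited values) below, with blue for ductal and orange for stromal groups. The hepatocyte sum reached 27625 TPM in SCA1+Msc at day 0 and 40.2 to 432 TPM in cultured stroma, and the endothelial sum stood at 1768 to 2102 only in PDGFRα-SCA1+ cells among the homeostasis populations.

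In the transwell experiment the 10 genes did not share a pattern. Their summed level was 6937 and 8258 TPM in DC day 0, of which Lcn2 was nearly all, 18169 and 18597 in EM organoids, 11328 and 16887 in co-cultured organoids, 1794 and 1961 in SCA1+Msc at day 0, 8531 and 10548 in SCA1+Msc alone, and 15732 and 24158 in SCA1+Msc co-cultured. The leading gene changed with the group. It was Lcn2 in all ductal groups, Hp and Orm1 in fresh stroma, Serpina3n in stroma cultured alone, and Saa3 in co-cultured stroma.

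**Figure D2:**
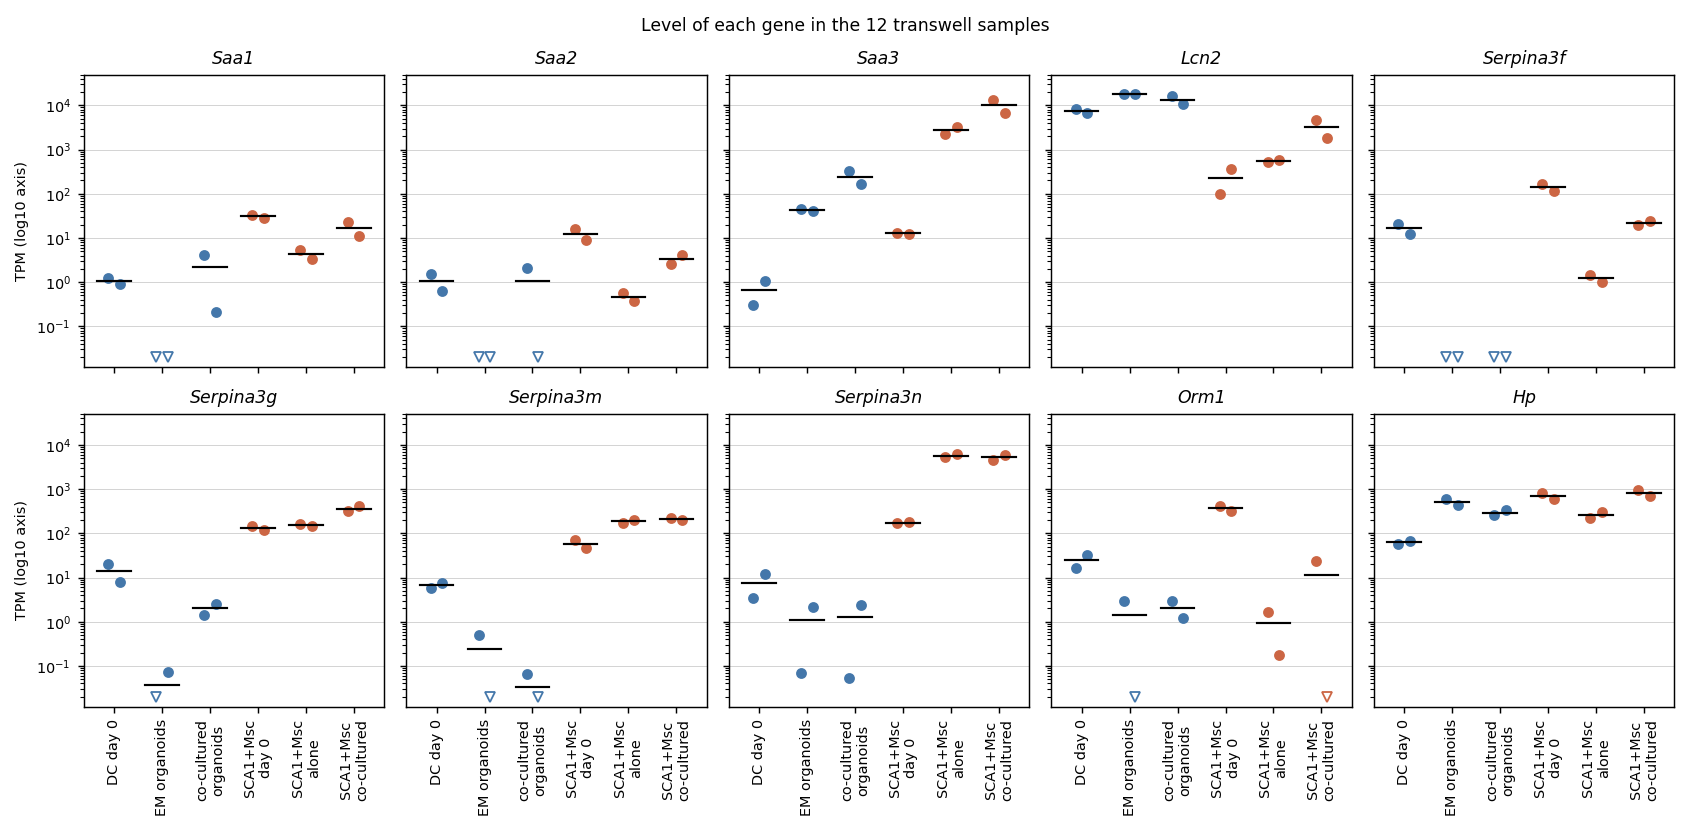
Level of each of the 10 genes in the 12 transwell samples (TPM, log10 axis; dots are samples, black bars group means of n = 2, open triangles samples at 0; blue ductal, orange stromal). Saa3 ran from 0.312 to 13414 TPM, and Serpina3n stood at 4485 TPM or more in all 4 cultured stromal samples and at 11.9 TPM or less in every ductal sample.

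Saa3 is a serum amyloid A that is also made outside the hepatocyte. It was 0.312 and 1.04 TPM in DC day 0, 44.5 and 41.6 in EM organoids and 321 and 167 in co-cultured organoids. In SCA1+Msc it was 13 and 12.4 TPM at day 0, 2218 and 3200 alone and 13414 and 6582 co-cultured. Its groups did not overlap, which the choice of this gene fixed in part, and the share of all genes that separate likewise was not counted. By mean level it ranked 32nd of all genes in SCA1+Msc alone and 7th in SCA1+Msc co-cultured, where 0.497% and 1.01% of the counted reads fell on it. The stromal levels chose this gene, so only its ductal and day 0 differences are tested. Saa1 and Saa2, the serum forms that ride on high-density lipoprotein, kept far lower levels and another order. Saa1 was highest in SCA1+Msc at day 0 (33.7 and 27.7 TPM), followed by SCA1+Msc co-cultured (23.3 and 11.0) and alone (5.47 and 3.29), then by co-cultured organoids (4.10 and 0.214), which overlapped with the lone stroma and with DC day 0 (1.22 and 0.903), and it was at 0 reads in EM organoids. Saa2 was 15.7 and 8.88 TPM in SCA1+Msc at day 0, at most 4.02 in every other sample and likewise at 0 reads in EM organoids.

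Lcn2, a secreted lipocalin that binds iron-loaded siderophores, was the most abundant of the 10 in ductal cells: 8131 and 6796 TPM in DC day 0, 17958 and 17680 in EM organoids, where it was the gene with the third highest mean, and 16300 and 10825 in co-cultured organoids. Since ductal levels chose it, the 2.39-fold higher mean of EM organoids over DC day 0 is a description. In stroma it was 101 and 358 TPM at day 0, 530 and 570 alone and 4704 and 1846 co-cultured. The ductal markers of the same libraries summed to 1192 and 2539, 215 and 234, and 554 and 273 TPM, so that within each pair the library with more ductal markers also had more Lcn2. Their part in the Lcn2 level was not tested. Lone and co-cultured stroma differed 5.95-fold in mean Lcn2.

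The SerpinA3 members separated from each other. Serpina3n, an inhibitor of granzyme B and neutrophil proteases, rose from 169 and 181 TPM in SCA1+Msc at day 0 to 5212 and 6120 alone and 4485 and 5942 co-cultured, ranking 13th and 16th of all genes by mean. In ductal groups it was between 0.0541 and 11.9 TPM. Serpina3g, a cathepsin inhibitor also called Spi2A, was 145 and 122 TPM in SCA1+Msc at day 0, 165 and 148 alone and 315 and 411 co-cultured, and fell in the ductal line from 20 and 7.74 at day 0 to 0 and 0.0744 in EM organoids and 1.43 and 2.58 in co-cultured organoids. Serpina3m was 69.6 and 46.8 TPM in SCA1+Msc at day 0, 175 and 197 alone and 224 and 205 co-cultured. Serpina3f, unlike the other 3 SerpinA3 members, was highest in fresh stroma, with 170 and 117 TPM at day 0, 1.48 and 1.01 alone and 19.4 and 24.0 co-cultured. It was 21.1 and 12.1 TPM in DC day 0 and had no read in any organoid sample. The cultured levels of Serpina3f chose this gene, and its 17.4-fold higher mean in co-cultured than in lone stroma is a description.

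Orm1 (alpha-1-acid glycoprotein, a carrier of drugs and lipids in plasma) was 410 and 320 TPM in SCA1+Msc at day 0, 1.68 and 0.175 alone, and 23.4 and 0 co-cultured. The co-cultured replicate with Orm1 at 23.4 TPM also had the higher hepatocyte sum (432 against 40.2 TPM), and the part of this in the level was not tested. Hp (haptoglobin, which clears free haemoglobin) was 834 and 600 TPM in SCA1+Msc at day 0, 223 and 307 alone and 948 and 707 co-cultured, against 57.5 and 66.9 in DC day 0, 591 and 444 in EM organoids and 255 and 329 in co-cultured organoids. Unlike Orm1, Hp kept at least 223 TPM in cultured stroma, where the hepatocyte sum was at most 432 TPM.

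Organoids were compared with the DCs they grew from to see what culture did to the epithelium. In EM organoids Saa3 was 4.75 log2 units higher than in DC day 0 (SE 0.38, adjusted p = 1.1e-05) and Hp 3.03 higher (SE 0.24, adjusted p = 9.4e-06). The SerpinA3 members fell, with differences of -3.71 for Serpina3g (adjusted p = 3.9e-05), -2.65 for Serpina3m (adjusted p = 4.2e-05) and -2.05 for Serpina3n (SE 0.66, adjusted p = 0.0295), and Serpina3f went from 21.1 and 12.1 TPM to 0 reads, which is at least 85.6-fold lower at a floor of 3 reads per library (adjusted p = 9.4e-06). Orm1 differed by -3.60 (SE 1.24, adjusted p = 0.0400). Thus 2 of the 9 members tested were higher and 5 lower, where 27.1% of the 18136 genes tested were higher and 17.2% lower, and the median difference of the members was -2.05 against 0.12 for all genes. The hepatocyte sum fell from 4603 and 5791 TPM to 1408 and 1344 in the same comparison. The neutrophil sum fell from 143 and 63.2 to 9.53 and 3.98, and the erythroid sum from 5206 and 5314 to 0.467 and 1.37. The part of these sums in the result was not tested. Serpina3n lost its call without DC day 0 replicate 2 (adjusted p = 0.216) or EM organoids replicate 1 (0.211), over a range of 0.00438 to 0.216 in all alternatives. Orm1 lost it without DC day 0 replicate 1 (0.0839) or 2 (0.175) or EM organoids replicate 2 (0.222), over a range of 0.00748 to 0.222.

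The rest of the pathway moved in the same comparison as follows. Of 22 other acute phase genes tested, 4 were higher and 6 lower (median difference 0.26, against 0.12 for all genes). Lbp, which hands bacterial lipopolysaccharide to its receptor, was 24.9 and 28.5 TPM in DC day 0 and 853 and 859 in EM organoids, a difference of 4.95, Lrg1 rose by 2.83 and Cfb, a complement protease, by 1.59, while Hamp (hepcidin) went from 116 and 114 TPM to 0. Among 9 other SerpinA genes 6 were lower and none higher (median -2.88), and Serpina3k went from 85.1 and 116 TPM to 0.0681 and 0. Of 9 cytokines that induce acute phase genes 7 were lower and none higher (median -3.92). Lif (-6.24) and Tnf (-4.95) fell, and Il6 was 16.0 and 16.8 TPM in DC day 0 and 0 in EM organoids. Of 19 transcription factors and feedback regulators 14 were lower (median -1.99), led by the NF-κB targets Tnfaip3 (-4.71), Nfkbia (-3.59) and Nfkbiz (-3.36). Receptors went both ways, with 5 of 16 higher (Il1r1, the interleukin-1 receptor, by 2.61) and 7 lower (Tlr2, -2.92), with a median of -0.56.

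Between co-cultured and EM organoids, Saa3 was 321 and 167 TPM against 44.5 and 41.6, a log2 difference of 2.40 (95% interval 1.54 to 3.27, adjusted p = 0.00335) and 5.67-fold in mean. Serpina3g was 1.43 and 2.58 TPM against 0 and 0.0744, a difference of 1.51 (SE 0.37, adjusted p = 0.0255). These were the 2 of 9 members called, both higher, with 5.73% of all genes higher and 7.21% lower, and the members' median difference was 0.57 against -0.13 for all genes. Under quantile normalization the balance of all calls turned, from 44.3% higher to 54.1%. Hp was 255 and 329 against 591 and 444 TPM and did not pass (-0.82, 95% interval -1.35 to -0.29, adjusted p = 0.0513), but did with a minimum of 5 (0.0392), quantile normalization (0.0437) and only the groups compared (0.0212). The hepatocyte sum was 154 and 353 TPM in co-cultured against 1408 and 1344 in EM organoids, and its part in the Hp value was not tested. Of its 12 markers, 2 reached 1 TPM in both co-cultured samples and 4 in both EM samples. Serpina3f had no read in either group. Saa1 and Saa2 showed 4.10 and 2.13 TPM in co-cultured replicate 1 and 0.214 and 0 in replicate 2. Replicate 1 also had 117 TPM of neutrophil markers against 9.98 in replicate 2 and 3.98 to 9.53 in EM organoids, with Ngp, Camp, Ly6g, Retnlg, Mpo and Elane at 0 in all of them, and the part of this in the Saa3 and Saa1 values was not tested. The call of Serpina3g was lost when any of the 4 libraries was left out, with adjusted p = 0.120 and 0.101 without EM organoids replicate 1 and 2 and 0.0537 and 0.152 without co-cultured organoids replicate 1 and 2, and over all alternatives its p ran from 0.00121 to 0.152.

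The cytokine Il1a was 74.8 and 87.7 TPM in co-cultured organoids and at 0 in both EM organoid samples, 1 of the 2 cytokines higher among 9 (Lif by 1.62), with none lower. Of the transcription and feedback genes 5 of 19 were higher, among them Tnfaip3 (2.02) and Socs1 (1.86), and 4 lower, among them Stat3 (-0.93), Cebpd (-0.72) and Irf1 (-0.69). Of 16 receptors 2 were higher (Il22ra1, 1.55) and 6 lower (Lifr, -2.81). Slc22a17, a receptor for lipocalin-2, was 11.6 and 10.3 TPM in co-cultured against 36.8 and 39.6 in EM organoids, a difference of -1.71. The medians were 0 for cytokines, 0.16 for transcription and feedback genes and -0.42 for receptors. Of the other acute phase genes 6 of 22 were lower (median -0.57), led by Itih4 (-4.32), C3 (-1.72) and Crp (-1.58), beside the lower hepatocyte sum, whose part was not tested, and Hamp alone was higher (2.79). Saa3 was higher in co-cultured organoids where 6 other acute phase genes were lower, and a link between these differences was not tested.

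Against DC day 0, co-cultured organoids had Saa3 higher by 7.15 (SE 0.38, adjusted p = 1.2e-06) and Hp by 2.21 (adjusted p = 7.2e-05). Serpina3g (-2.20, adjusted p = 0.00105), Serpina3m (-2.89, adjusted p = 2.6e-05) and Serpina3n (-1.99, adjusted p = 0.0351) were lower, and Serpina3f was at least 99.4-fold lower (adjusted p = 1.0e-05). That makes 2 of 9 members higher and 4 lower, against 23.2% and 19.1% of all genes, with medians of -1.99 and 0. Orm1 was 2.88 and 1.2 TPM against 16.2 and 32.4 and did not pass (-3.04, adjusted p = 0.0779). Serpina3n lost its call without DC day 0 replicate 2 (adjusted p = 0.245) or co-cultured organoids replicate 1 (0.251), over a range of 0.00545 to 0.251. The hepatocyte sum was 154 and 353 TPM in co-cultured organoids against 4603 and 5791 in DC day 0, and the erythroid sum 0 and 0.0552 against 5206 and 5314. The part of these sums in the result was not tested. EM and co-cultured organoids share the DC day 0 samples here, so the likeness of their lists is not a result.

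In the transwell experiment all 9 members tested were higher in SCA1+Msc at day 0 than in DC day 0, where 21.4% of all genes were higher and 24.7% lower, with a median difference of 3.30 against -0.07. The differences were 4.54 for Serpina3n (SE 0.66, adjusted p = 3.7e-04), 3.94 for Saa1 (adjusted p = 5.3e-04), 3.92 for Orm1 (SE 1.24, adjusted p = 0.0270), 3.49 for Hp (SE 0.24, adjusted p = 3.1e-06) and 3.30 for Serpina3g (adjusted p = 7.0e-05). Serpina3f and Saa3 were each higher by 3.06 (adjusted p = 4.7e-05 and 1.5e-04), Serpina3m by 2.92 (adjusted p = 1.9e-05) and Saa2 by 2.66 (adjusted p = 0.00243). Lcn2 was the exception, 32.5-fold lower in mean in stroma, as its choice fixed. In the same comparison 12 of 22 other acute phase genes were higher and 3 lower (median 2.39), and 8 of 9 other SerpinA genes were higher (median 3.01). Hepatocyte markers summed to 22764 and 27625 TPM in this stroma against 4603 and 5791 in DC day 0, and erythroid markers to 8678 and 10762 against 5206 and 5314. Endothelial markers summed to 177 and 182 TPM in this stroma against 27.9 and 25.1 in DC day 0. The part of these sums in the result was not tested. The Orm1 call was lost without any 1 of the 4 libraries, with adjusted p = 0.132 and 0.0634 without DC day 0 replicate 1 and 2 and 0.0933 and 0.0692 without SCA1+Msc day 0 replicate 1 and 2, over a range of 0.00175 to 0.214, and Saa2 reached 0.0505 with a pseudocount of 0.1.

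**Figure D3:**
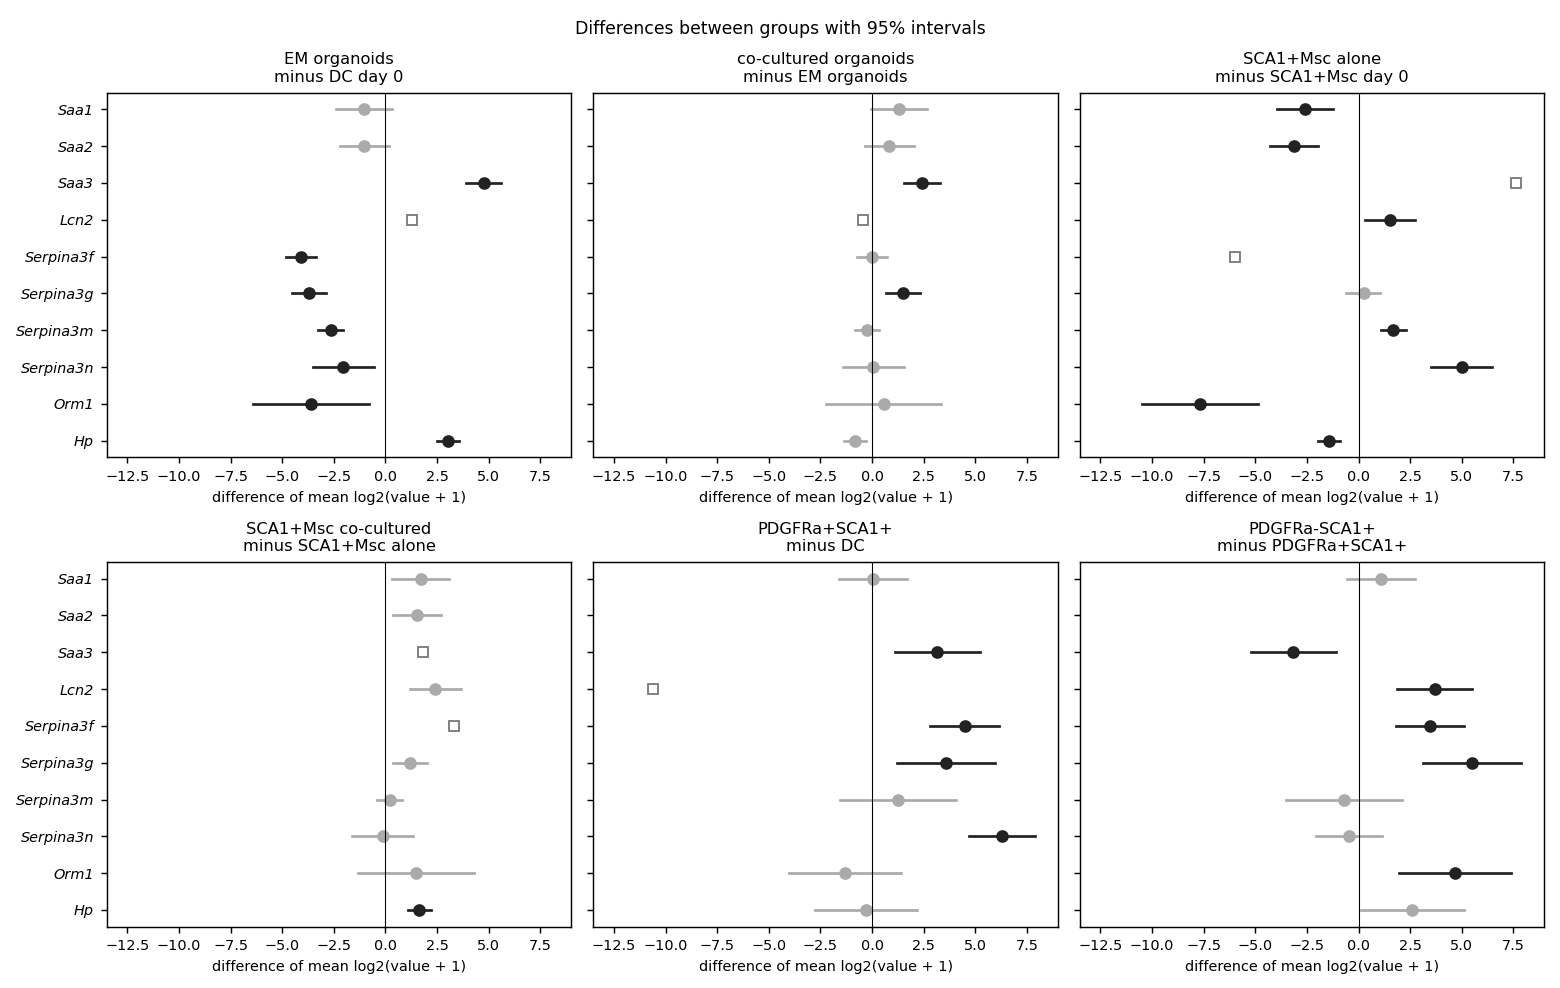
Log2 difference of each member in 6 comparisons with its 95% interval (black, adjusted p under 0.05; grey, not; open squares, values that chose the members and carry no test). Saa3 stands 7.61 and Serpina3n 5 log2 units higher in SCA1+Msc alone than at day 0, whereas Orm1 stands at -7.68 and Serpina3f at -5.99.

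Culture of the stroma split the members. From SCA1+Msc at day 0 to SCA1+Msc alone, Serpina3n rose by 5 log2 units (SE 0.66, adjusted p = 2.4e-04), a 32.4-fold higher mean, Serpina3m by 1.68 (SE 0.27, adjusted p = 7.2e-04) and Lcn2 by 1.53 (SE 0.55, adjusted p = 0.0457). Orm1 (-7.68, SE 1.24, adjusted p = 8.4e-04), Saa2 (-3.13, SE 0.53, adjusted p = 0.00109), Saa1 (-2.58, SE 0.61, adjusted p = 0.00679) and Hp (-1.43, SE 0.24, adjusted p = 9.7e-04) fell. Serpina3g, at 145 and 122 TPM before and 165 and 148 after, differed by 0.24 (95% interval -0.59 to 1.06, adjusted p = 0.648). That is 3 higher and 4 lower of 8 tested, with 27.4% of all genes higher and 17.5% lower and medians of -0.59 (members) and 0.19 (all genes). The values that chose the members were 7.61 for Saa3 and -5.99 for Serpina3f. The hepatocyte sum went from 27625 and 22764 to 92.0 and 84.3 TPM at the same time, and the erythroid sum from 8678 and 10762 to 1.36 and 1.81, and their part in the result was not tested. The endothelial sum went from 177 and 182 to 89.4 and 151 TPM, and its part was not tested either. The call of Lcn2 was lost without SCA1+Msc day 0 replicate 1 (adjusted p = 0.318) or SCA1+Msc alone replicate 1 (0.123) or 2 (0.146), over a range of 0.00298 to 0.318, and with a pseudocount of 0.1 Serpina3m reached 0.0814 (range 1.7e-04 to 0.0814) and Saa1 0.0550 (range 8.9e-04 to 0.0550).

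Other genes of the 2 families split likewise. Of 9 other SerpinA genes, Serpina3i was 6.14 and 0 TPM at day 0 and 47.4 and 41.9 alone (a rise of 4.09), and Serpina3c rose by 2.11, while 6 fell, Serpina1d (-9.45), Serpina1e (-9.41) and Serpina3k, which went from 1857 and 1612 TPM to 0, among them. Serpina3m overlaps Serpina3k, and the part of shared reads in its day 0 level was not tested. Of 22 other acute phase genes 5 were higher and 15 lower. Lrg1 rose by 1.90 and C3 by 1.44, and A2m, a protease trap, was 52.3 and 45.7 TPM alone and 0 at day 0, whereas the fibrinogen genes Fga (-8.79) and Fgg (-8.45) and Hamp (-8.77) were among the falls. Of 9 cytokines 8 fell. Il6 went from 2466 and 2160 TPM to 16.2 and 22.7, a fall by 6.84 on the log2 scale, Lif fell by 6.05, and Il1a went from 76.0 and 52.6 TPM to 0. Of 19 transcription and feedback genes 17 fell, led by Tnfaip3 (-6.46), Nfkbiz (-5.16) and Nfkbia (-4.68), and none rose. Il6st, the signal-transducing receptor chain of the interleukin-6 family, rose by 2.61 and was 1 of 5 higher among 16 receptors, with Tlr2 (-3.34) among the 2 that fell. The list medians were -8.47 for SerpinA, -2.30 for acute phase, -4.88 for cytokine, -1.90 for transcription and feedback and 0.07 for receptor genes, against 0.19 for all genes. Serpina3n and, with a call that was lost without some single samples, Lcn2 were higher in the samples in which most cytokines and NF-κB targets of these lists were lower. A link between these changes was not tested. The day 0 cells came straight from digestion and sorting, and the part of this in these changes was not tested.

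Stroma cultured with and without the ducts was compared as SCA1+Msc co-cultured against alone. Hp was called, at 948 and 707 TPM against 223 and 307 (difference 1.64, 95% interval 1.11 to 2.18, adjusted p = 0.0444). It was the only 1 of 8 members to pass, in a comparison where 0.0937% of all genes were higher (17 genes) and 0.0331% lower (6 genes), with 1263 genes at an unadjusted p under 0.05. The other members did not pass. Lcn2 stood 2.42 higher (95% interval 1.19 to 3.65, adjusted p = 0.207), Saa1 1.70 higher (0.33 to 3.06, adjusted p = 0.572), Saa2 1.53 higher (0.34 to 2.71, adjusted p = 0.554) and Serpina3g 1.2 higher (0.37 to 2.02, adjusted p = 0.463). The chosen values stood 1.82 (Saa3) and 3.34 (Serpina3f) higher, and the median of the 8 tested members was 1.5 against 0 for all genes. Serpina3n overlapped, with 4485 and 5942 TPM against 5212 and 6120. The Hp call did not hold without any 1 of the 4 libraries, with adjusted p = 0.284 and 0.109 without SCA1+Msc alone replicate 1 and 2 and 0.270 and 0.0659 without SCA1+Msc co-cultured replicate 1 and 2, over a range of 0.0370 to 0.284. Hepatocyte markers summed to 432 and 40.2 TPM (with Hp at 948 and 707) against 92.0 and 84.3 (with Hp at 223 and 307), and their part in the Hp result was not tested. Neutrophil markers summed to 18.8 and 9.83 TPM co-cultured and 8.77 and 3.44 alone, with Ly6g and Elane at 0, and macrophage markers to 272 and 296 against 387 and 613, with Ptprc and Clec4f at 0. Their part in the Lcn2 and Saa3 values was not tested.

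Of the pathway lists, Il6 was the only 1 of 9 cytokines to pass, at 76.8 and 59.9 TPM co-cultured against 16.2 and 22.7 alone (difference 1.77, adjusted p = 0.0304). Of 22 other acute phase genes 3 were higher, namely Saa4, the fourth gene of the Saa cluster, at 20.7 and 17.9 TPM against 3.55 and 4.80 (1.98, adjusted p = 0.0382), and the metallothioneins Mt2 (1.59, adjusted p = 0.0395) and Mt1 (1.24, adjusted p = 0.0382). No receptor, SerpinA, transcription or feedback gene and no binding partner of the lists passed. In a fit of only the groups compared no gene at all passed, so the calls of Il6, Saa4, Mt1 and Mt2 were lost there. The list medians lay between -0.08 (receptors) and 0.53 (acute phase), against 0 for all genes.

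Against day 0, SCA1+Msc co-cultured had Serpina3n higher by 4.87 (SE 0.66, adjusted p = 2.9e-04), Lcn2 by 3.95 (SE 0.55, adjusted p = 3.4e-04), Serpina3m by 1.89 (SE 0.27, adjusted p = 3.8e-04) and Serpina3g by 1.43 (SE 0.37, adjusted p = 0.0109). Orm1 (-6.20, SE 1.24, adjusted p = 0.00299) and Saa2 (-1.60, SE 0.53, adjusted p = 0.0339) were lower. Saa1 (-0.89, 95% interval -2.25 to 0.48, adjusted p = 0.274) and Hp (0.21, -0.32 to 0.74, adjusted p = 0.515) were not called. Of 8 tested 4 were higher and 2 lower, against 26% and 17.3% of all genes, with medians of 0.82 and 0.17, and alone and co-cultured stroma share the day 0 samples. The hepatocyte sum went from 27625 and 22764 to 432 and 40.2 TPM and the erythroid sum from 8678 and 10762 to 0.92 and 1.05, and their part in the result was not tested. Saa2 lost its call without SCA1+Msc day 0 replicate 1 (adjusted p = 0.158) or SCA1+Msc co-cultured replicate 1 (0.156) or 2 (0.0644), over a range of 0.00547 to 0.275, and Serpina3g without SCA1+Msc day 0 replicate 2 (0.0522) or SCA1+Msc co-cultured replicate 2 (0.0753), over a range of 0.00455 to 0.0753. With a pseudocount of 0.1 Serpina3m reached 0.0566 (range 7.3e-05 to 0.0566).

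The changes of stroma and ducts from day 0 to co-culture were also compared directly, as the stromal change minus the ductal one. Each change holds the culture itself as well as the presence of the other cells, and Serpina3n stood at 5 in lone and 4.87 in co-cultured stroma against day 0. Serpina3n differed by 6.87 (SE 0.93, adjusted p = 7.1e-04), Serpina3m by 4.78 (SE 0.38, adjusted p = 3.4e-05) and Serpina3g by 3.63 (SE 0.52, adjusted p = 9.7e-04), all of which rose in stroma and fell in ducts. The hepatocyte sum fell on both sides, from 27625 and 22764 to 432 and 40.2 TPM in stroma and from 4603 and 5791 to 154 and 353 in ducts, and its part was not tested. Hp differed by -1.99 (SE 0.34, adjusted p = 0.00227), with 62.2 TPM in mean in DC day 0 and 292 in co-cultured organoids against 717 and 828 in stroma. Of 7 members tested 3 were higher and 1 lower, with 14.5% of all genes higher and 13.8% lower. Their median was -1.16 against 0.14 for all genes, opposite in sign to the larger count, since Saa1, Saa2 and Orm1 lay below 0 without passing. Over the alternatives the p of Saa1 ran from 0.0387 to 0.911, that of Saa2 from 0.0369 to 0.829 and that of Orm1 from 0.0093 to 0.618, and up to 6 members passed with a sample left out.

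In the healthy liver, Serpina3n and Serpina3f set the stroma apart from the ducts, and Serpina3g marked the PDGFRα-SCA1+ cells. Serpina3n was 124, 182 and 112 (mice A, E and F in this order throughout) in PDGFRα+SCA1+ cells and 28.8, 150 and 197 in the SCA1- ones, against 0.0903, 0.0826 and 3.52 in DCs. Serpina3f was 372, 218 and 592 in the PDGFRα- cells, 12.4, 18.8 and 135 in PDGFRα+SCA1+ cells and 166, 91 and 176 in the SCA1- ones, against 0, 0.0587 and 2 in DCs. Serpina3g reached 1329, 1308 and 1094 in PDGFRα-SCA1+ cells, rank 96 of all genes by mean, and at most 53.7 elsewhere. Lcn2 was 4484, 4114 and 4043 in DCs and at most 112 in the stroma.

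**Figure D4:**
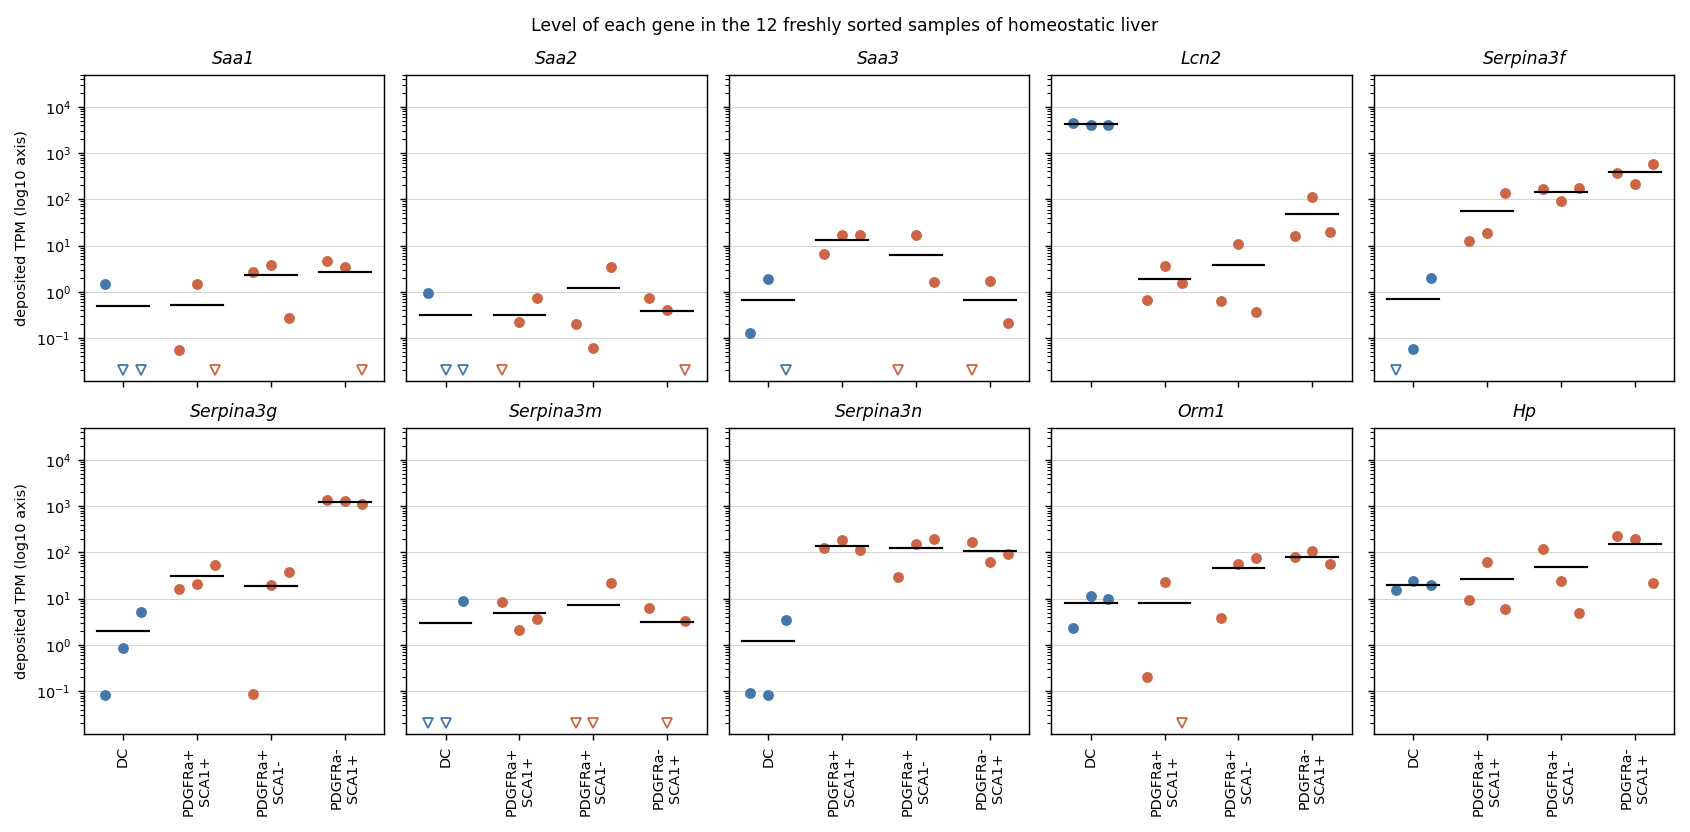
Level of each of the 10 genes in the 12 homeostasis samples (deposited values, log10 axis; dots are mice A, E and F, black bars means of n = 3, open triangles samples at 0). Serpina3g stands between 1094 and 1329 in PDGFRα-SCA1+ cells and at most at 53.7 elsewhere, and Lcn2 between 4043 and 4484 in DCs.

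PDGFRα+SCA1+ cells had Serpina3n 6.30 higher than DCs (SE 0.73, adjusted p = 4.6e-05), Serpina3f 4.49 higher (SE 0.77, adjusted p = 9.6e-04), Serpina3g 3.57 higher (SE 1.09, adjusted p = 0.0311) and Saa3 3.17 higher (SE 0.94, adjusted p = 0.0278). Saa3 was 6.44, 16.8 and 16.8 there against 0.131, 1.86 and 0 in DCs, and 0, 17 and 1.63 in the SCA1- ones. With 4 of 8 members higher and none lower, 9.85% of the 17028 genes tested were higher and 14% lower, and the medians were 2.22 (members) and -0.28 (all genes). Under quantile normalization the share of higher genes among all calls moved from 41.4% to 50.6%. Saa1 (0.03, 95% interval -1.62 to 1.67, adjusted p = 0.99), Orm1 (-1.31, -4.02 to 1.40, adjusted p = 0.502) and Hp (-0.30, -2.78 to 2.19, adjusted p = 0.888) were not called. Saa2 stayed under the filter. The hepatocyte sum was lower in these cells (1405, 2875 and 1073) than in DCs (5885 to 6984). Saa3 lost its call without mouse A or F of the DCs (adjusted p = 0.0938 and 0.0996) or E or F of the PDGFRα+SCA1+ cells (0.0863 and 0.0829), over a range of 0.00245 to 0.0996. Serpina3g lost it without mouse A or E of the DCs (0.113 and 0.0883) or mouse A, E or F of the PDGFRα+SCA1+ cells (0.0531, 0.0655 and 0.111), over a range of 0.00357 to 0.113. PDGFRα+SCA1- cells had Serpina3f 6.57 higher than DCs (SE 0.77, adjusted p = 4.8e-05) and Serpina3n 5.78 higher (SE 0.73, adjusted p = 8.9e-05), 2 of 8 members, with 9.98% of all genes higher and 18.9% lower and medians of 1.56 and -0.47. Under quantile normalization the share of higher genes among all calls moved from 34.6% to 46.1%. Serpina3g was 0.0863, 20.2 and 37.2 in these cells and did not pass (2.06, adjusted p = 0.179), but did without mouse A of the PDGFRα+SCA1- cells (0.00199, over a range of 0.00199 to 0.495).

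Between PDGFRα+SCA1+ and PDGFRα+SCA1- cells none of the 9 members tested in limma passed, and among all genes 0.435% were higher and 0.153% lower (1985 genes at an unadjusted p under 0.05). A fit that blocked on the animal called 16 genes higher and 4 lower, in place of 74 and 26, and under quantile normalization the share of higher genes among the calls was 57.4% in place of 74%. Serpina3f differed by -2.07 (95% interval -3.75 to -0.40, adjusted p = 0.312), Orm1 by -3.15 (-5.86 to -0.45, adjusted p = 0.343), and Saa3 by 1.88 (-0.17 to 3.93, adjusted p = 0.478). These intervals leave room for differences of several log2 units.

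The endothelial-marked PDGFRα-SCA1+ cells differed from the PDGFRα+SCA1+ cells in 5 of 9 members. Serpina3g was higher by 5.50 (SE 1.09, adjusted p = 0.00349), Orm1 by 4.69 (SE 1.24, adjusted p = 0.0193), Lcn2 by 3.68 (SE 0.84, adjusted p = 0.00830) and Serpina3f by 3.46 (SE 0.77, adjusted p = 0.00724), while Saa3 was lower (-3.16, SE 0.94, adjusted p = 0.0347). Among all genes 10.9% were higher and 7.86% lower, the medians were 2.61 for the members and 0.25 for all genes, and the share of higher calls went from 58.1% to 45.7% under quantile normalization. Serpina3n, at 172, 61.0 and 94.0 against 124, 182 and 112, differed by -0.45 (95% interval -2.04 to 1.15, adjusted p = 0.740). In the ratio of means, Serpina3g was 41.1-fold higher in the PDGFRα-SCA1+ cells and its neighbour Serpina3n 1.28-fold higher in the PDGFRα+SCA1+ cells. Orm1 was 81.4, 106 and 56.7 against 0.204, 23.5 and 0, and the hepatocyte sum 3739, 7335 and 2794 against 1405, 2875 and 1073. Lcn2 was 16.3, 112 and 19.7, and the mouse with 112, E, also had 3784 of ductal markers against 79.3 and 327 in A and F. The parts of these sums in the Orm1 and Lcn2 results were not tested. Hp was 230, 194 and 22.1 against 9.15, 63.1 and 6.01 and did not pass (2.61, 95% interval 0.13 to 5.10, adjusted p = 0.142), but did without mouse F of the PDGFRα-SCA1+ cells (0.0481, over a range of 0.0481 to 0.361). Saa3 lost its call without mouse E or F of the PDGFRα+SCA1+ cells (adjusted p = 0.103 and 0.101) or A or F of the PDGFRα-SCA1+ cells (0.104 and 0.0929), over a range of 0.00818 to 0.104, and Orm1 without mouse A or F of the PDGFRα+SCA1+ cells (0.0826 and 0.0815) or A or E of the PDGFRα-SCA1+ cells (0.0528 and 0.0621), over a range of 0.00245 to 0.0826.

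Of the other genes of the pathway, 6 of 9 other SerpinA genes were higher in the endothelial-marked cells and none lower than in PDGFRα+SCA1+ cells, with Serpina1d (3.87), Serpina1a (3.54) and Serpina1b (3.49) leading and a median of 3.39. Of 19 other acute phase genes 5 were higher (Lrg1 by 5.92) and 5 lower (Steap4 at -5.60, C3 at -4.22), with a median of 0.97. Of 8 cytokines, Il1a (6.85) and Tnf (3.87) were higher and 4 lower, among them Il11 (-7.04), Lif (-5.53) and Il6 (-5.37). Il6 itself ran from 1801 to 6095 in PDGFRα+SCA1+ cells and from 3.82 to 6.97 in DCs, a difference of 9. Both populations had been digested from the liver and sorted, and the part of this in the Il6 level was not tested. In that comparison of PDGFRα+SCA1+ cells with DCs, the feedback gene Socs3 was also higher (2.83), with 4 of 19 transcription and feedback genes higher and 5 lower, and 6 of 19 other acute phase genes higher (Itih3 by 4.12) and 7 lower (Apcs at -7.71).

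The genes whose levels over the 12 transwell samples were most like a member were found by Pearson correlation of log2(TPM + 1) among 11948 genes, as a description across groups that share culture and cell type. For Saa3 these were Surf4 (r = 0.984), a cargo receptor of the endoplasmic reticulum, Steap2 (0.984), a metalloreductase, and Fkbp11 (0.982), a prolyl isomerase of the secretory pathway. Fkbp11 was 26.4 and 21.9 TPM in DC day 0 and 389 and 378 in SCA1+Msc co-cultured. For Serpina3f they were Stat5a (0.978), a STAT transcription factor, Lyve1 (0.962), the hyaluronan receptor of lymphatic and sinusoidal endothelium, and Hdc (0.960), the histamine-forming enzyme. Lyve1 was 37.5 and 27.0 TPM in SCA1+Msc at day 0, 0 alone and 3.57 and 2.75 co-cultured. For Lcn2 they were Mrps22 (0.956), Cep70 (0.954) and Tcp1 (0.953). Among the members themselves, Saa3 was most like Serpina3n (r = 0.667) and Serpina3f most like Saa2 (0.876), and Saa3 and Serpina3f stood at -0.251.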

How the data were processed

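RNA-seq values of 24 samples were used, 12 in 6 transwell groups of 2 and 12 in 4 homeostasis populations of 3 mice, grouped by the titles of the samples. The authors aligned single 50-base Smart-seq2 reads to GRCm38 with STAR 2.5.0a, removed low-quality alignments and summed the rest over exons with featureCounts 1.6.0 (per the submitters' processing notes) without regard to strand. Which of the sequencing instruments a sample ran on is not given in the sources used here. The transwell table as deposited holds RPKM, from which TPM was made by dividing each sample by its sum. For the homeostasis experiment the deposited values, called TPM by the authors, are a score, since each was divided by a total that runs through the samples down the table, so that columns sum to 847270 to 1173511. They were used as deposited, and undoing this was an alternative. The 4 columns of the authors' means were not used.

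Depth was recovered from low values of up to 20 reads, of which 93.1% (transwell) and 92.9% (homeostasis) were whole within 0.02 of a read. The floor of 3 reads and all intervals of counts cover counting error only. Genes that reached 1 in 2 or more transwell samples (18136 genes) or 3 or more homeostasis samples (17028 genes) entered a fit by limma 3.58.1 (R 4.3.3) on log2(value + 1), 1 mean per group, eBayes with a trend, two-sided, Benjamini-Hochberg over all genes, threshold 0.05, for 12 comparisons. The fit was tested on simulated data. Other steps used Python 3.11.15, matplotlib 3.10.9, pandas 2.3.3 and numpy 2.4.6. Mouse letters pair the homeostasis samples, since the same animals gave all populations, and deviations of samples of 1 mouse correlated by 0.01 to 0.10.

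The members and gene lists were chosen with earlier results of these data known, and the lists carry no test of their own. All members are named, and of each list up to 3 genes with the largest called rise and 3 with the largest called fall of a comparison, genes on which a statement turns, and the 3 genes most like Saa3, Serpina3f and Lcn2. Some list genes are not reported here. Alternatives were a pseudocount of 0.1, no filter or a minimum of 5, quantile normalization, RPKM as deposited, totals undone, a replicate or mouse block, a fit of only the groups compared, and leaving out each sample.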

Additional observations from a re-analysis of the deposited data

Results flagged for a closer look

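In 4 members the change from day 0 to co-culture differed between stroma and ducts by a test of the difference itself (limma, adjusted over all genes). Serpina3n rose in SCA1+Msc and fell in the ductal line, a difference of 6.87 log2 units (95% interval 4.77 to 8.96, adjusted p = 7.1e-04, range over the alternatives 4.2e-05 to 0.0163). Serpina3m did so with a difference of 4.78 (3.94 to 5.63, adjusted p = 3.4e-05). Serpina3g did so with a difference of 3.63 (2.46 to 4.80, adjusted p = 9.7e-04). Hp rose in the ductal line and was not called in stroma, a difference of -1.99 (-2.75 to -1.24, adjusted p = 0.00227).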

How the results depend on the processing

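Of the 83 member differences that were called, chose the members or were picked for the text (64 transwell, 19 homeostasis), direction and side of the threshold were kept in 62 of 64 with RPKM as deposited, all 19 with the reuse of totals undone, 82 of 83 with a minimum of 5, 73 of 83 with no filter, 76 of 83 with only the groups compared, 70 of 83 with a pseudocount of 0.1, 80 of 83 with quantile normalization, 80 of 83 with the replicate block and 350 of 398 with a sample left out. Of the uncalled differences outside these, Saa1 passed in at least 1 alternative in EM organoids against DC day 0 (lowest p 0.023) and in co-cultured against EM organoids (0.0234). Saa1, Saa2 and Orm1 likewise passed in at least 1 alternative in the stromal minus the ductal change. The 2 reversals were of Hp in SCA1+Msc co-cultured against day 0, which was not called (0.21, and -0.03 to 0.45 without single samples, below 0 without SCA1+Msc day 0 replicate 2 or SCA1+Msc co-cultured replicate 1). Calls of members in EM organoids against DC day 0 (7) ranged from 5 to 6 with a sample left out, in co-cultured organoids against DC day 0 (6) from 5 to 6, in SCA1+Msc day 0 against DC day 0 (9) at 8, in co-cultured against EM organoids (2) from 1 to 2, and came to 1 with RPKM as deposited and 3 with a minimum of 5 or quantile normalization. Stroma alone against day 0 gave 7 calls, 4 with a pseudocount of 0.1 and 6 to 7 with a sample left out. Co-cultured against lone stroma gave 1 call and 0 with no filter, quantile normalization, the replicate block, only the groups compared or any sample left out. Over all genes that comparison gave 17 higher and 6 lower, 25 and 15 with a pseudocount of 0.1, 32 and 19 with no filter, 13 and 2 with a minimum of 5, 4 and 1 with the block and 0 with only the groups compared. PDGFRα+SCA1+ against DC gave 4 calls, 2 with a pseudocount of 0.1 or no filter and 2 to 3 with a mouse left out. PDGFRα-SCA1+ against PDGFRα+SCA1+ gave 5 calls and 3 to 5 with a mouse left out. Over all genes PDGFRα+SCA1+ against DC gave 1678 higher and 2376 lower, and 2480 and 4441 with only the groups compared, PDGFRα+SCA1+ against PDGFRα+SCA1- gave 1 and 3 with only the groups compared, against 74 and 26. Leaving out single samples moved these counts: PDGFRα+SCA1+ against PDGFRα+SCA1- gave 6 and 1, 10 and 6 and 4 and 2 without PDGFRα+SCA1+ mouse A, E and F, and 333 and 59 and 157 and 59 without PDGFRα+SCA1- mouse E and F. PDGFRα+SCA1+ against DC gave 1299 and 1369 without DC mouse E. PDGFRα+SCA1- against DC gave 1357 and 1894 without it, in place of 1699 and 3212. Co-cultured against EM organoids gave 1040 and 1308, and 668 and 599, 643 and 544, 533 and 560 and 565 and 745 without EM organoids replicate 1 and 2 and co-cultured organoids replicate 1 and 2. Co-cultured against lone stroma gave 0 without SCA1+Msc alone replicate 1 or SCA1+Msc co-cultured replicate 1, and 1 and 2 without SCA1+Msc alone replicate 2. Quantile normalization moved the median of all genes from 0.12 to 0.00 (EM organoids against DC day 0), from -0.13 to -0.01 (co-cultured against EM organoids), from -0.28 to -0.10, -0.47 to -0.13, 0.15 to 0.01 and 0.25 to 0.04 in the homeostasis comparisons in the order of the report. For same-numbered transwell samples no shared animal is stated (correlations of deviations -0.02 to 0.03). With the replicate block Orm1 in co-cultured organoids against DC day 0 was called (adjusted p = 0.0456), and Lcn2 in lone stroma against day 0 (0.0603) and Hp in co-cultured against lone stroma (0.0927) were not, with no other member call changed. With the mouse block no member call changed in the homeostasis experiment. The cause of these shifts was not tested. With 2 or 3 samples a group, a difference near the spread between samples was not detectable.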
